A study of Homo sapiens with 12 samples.

Results

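The collagen, laminin and integrin genes were followed in cells labelled PC3, a prostate cancer line, after treatment with Wee1 inhibitor II, 17-AAG or both drugs. Members were taken by symbol: COL, digits, A and digits for collagens, LAMA, LAMB or LAMC and a digit for laminins, and ITGA or ITGB with a number or 1 of the letters V, L, M, X, D and E for integrins. Of 19775 genes measured, 78 had such a symbol, 43 of them collagens, 10 laminins and 25 integrins. Of the 78, 26 reached a signal of 100 (geometric mean of a group) in at least 1 of the 4 groups, and the comparisons below concern these 9 collagens, 6 laminins and 11 integrins. The lowest of the 26 by their brightest group were ITGA7 at 100.5, COL16A1 at 112 and COL9A2 at 117, and the highest of the 52 left out were COL7A1 at 93.5, COL11A2 at 84.7 and COL1A1 at 82.0. A signal of 100 was reached in every group by 18 of the 26.

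All groups held cells grown in DMEM with fetal bovine serum, and 100 ng of RNA per sample was labelled for Affymetrix expression arrays. Wee1 inhibitor II, against the kinase that keeps CDK1 inactive before mitosis, was given at 2.5 µM. 17-AAG, an inhibitor of the chaperone Hsp90, was given at 40 nM and was added 24 h after the Wee1 inhibitor. Cells were harvested 48 h after 17-AAG, and vehicle replaced the drugs in the controls. The groups were control (2 arrays used of 3), Wee1 inhibitor II alone (3 arrays), 17-AAG alone (3 arrays) and both drugs (3 arrays), and the series title asks whether Wee1 inhibition sensitises prostate cancer cells to Hsp90 inhibition. Nothing in the labels says that replicates were separate cultures, so the p-values rest on the spread among these arrays alone, and that spread may be technical.

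Collagens and laminins are secreted matrix proteins, each built from 3 chains, and integrins are the receptors, each of an alpha and a beta subunit, that hold cells to them. Type IV collagen and laminins form the networks of basement membranes, the thin sheets under epithelia and around vessels. In prostate epithelium such a sheet lies under the basal cells, which bind its laminin through integrins that contain the alpha-6 subunit. Pigment cells and tumours of them are known for integrins that contain the alpha-V and beta-3 subunits.

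The labelled cell type and the markers on the 11 arrays differed. Of 10 measured markers of PC3 or prostate epithelium only KRT18 and CD44 reached 100, and KRT8 stayed at 25.8 to 45.5. CTNNA1 and STAT3, which PC3 has lost through deletion, had signals of 2559 to 5040 and 819 to 1296. All 11 measured pigment cell markers reached 100 in the control arrays, and their summed signal was 38104 to 39325 in controls, 32291 to 35020 with Wee1 inhibitor II, 48073 to 53312 with 17-AAG and 55780 to 56963 with both drugs. Of 10 fibroblast markers only LUM reached 100, with summed signals of 1117 to 1274, 471 to 528, 1825 to 1963 and 809 to 893 in the same order, and none of 8 blood and endothelial markers reached 100. Of 14 heat shock genes listed as a check of the 17-AAG label, 11 were measured, and HSPA1A, HSPA1B and HSPA8 were not among them. Of the 11, limma called 0 higher (0 at an unadjusted p under 0.05) and 5 lower with 17-AAG alone. The calls were 0 higher and 6 lower with Wee1 inhibitor II alone, and 1 higher and 3 lower with both drugs. Control replicate 2, which the submitters marked as weak signal and removed, differed from the 11 in these markers: HOXB13, EPCAM and KRT8 had signals of 2087, 1096 and 615 there, CTNNA1 and STAT3 had 1.57 and 7.54, and the pigment cell markers summed to 375. On that array 5 of the 10 markers of PC3 or prostate epithelium reached 100. It was left out of every test here except 1 alternative, and the groups below are named as labelled. Whether a change came from fewer cells of a type or from less RNA per cell cannot be told apart in bulk samples.

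Most collagens and laminins that reached the signal minimum rose with Wee1 inhibitor II, and the integrins moved both ways. With Wee1 inhibitor II alone, 6 of 9 collagens and 4 of 6 laminins rose, against 2 of 11 integrins, ITGB1 and ITGB5; 1 member, ITGAE, fell. Across all 8952 genes that reached a signal of 100, 24.2% were called higher and 21.2% lower in that comparison (limma, adjusted p under 0.05 over all genes). A gene could reach 100 through a treated group alone, and the control means of COL5A3, COL6A1, COL9A2, COL13A1, COL16A1, LAMA5, ITGA2 and ITGA7 were below 100, so the counts over the 26 describe the members and support nothing. Of the 21 members with a mean over the 11 arrays of at least 100, 4 of 6 collagens, 3 of 5 laminins and 2 of 10 integrins rose, beside 23.3% higher and 21.6% lower among 8278 such genes. Their median log2 fold changes were 1.64, 0.88 and 0.051, beside 0.0040 for the 8278 genes. The mean over the 11 arrays also holds the treated ones: COL13A1, at 100.8, and COL5A3, at 129, had control means of 72.2 and 58.5. The counts and medians over the 21, in this and the other comparisons, therefore describe the members and support nothing either. Of the 11 pigment cell markers 3 rose and 6 fell with Wee1 inhibitor II alone (limma), and their part in this comparison was not tested. With 17-AAG alone, 4 laminins and 3 integrins (ITGA9, ITGAV and ITGB5) rose and 2 integrins (ITGAE and ITGB3) fell, against a background of 18.6% higher and 13.6% lower; of the 21, 3 laminins and 3 integrins rose and 2 integrins fell, beside 18.4% higher and 1158 of 8278 genes lower. None of the 9 collagens was called with 17-AAG alone, and 1 of them had an unadjusted p under 0.05 in limma, with a lower signal. That count of 9 members called with 17-AAG was 3 without control replicate 3, 4 without control replicate 1, 5 without 17-AAG replicate 1 and 5 without 17-AAG replicate 3.

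With both drugs against control, 6 collagens, 4 laminins and 4 integrins rose and 3 integrins fell, 17 of 26 members, where the background was 27.9% higher and 22.8% lower. The 6 collagens were COL4A1, COL4A2, COL5A3, COL6A1, COL9A2 and COL9A3. Of the 21 with a mean of at least 100, 4 collagens, 3 laminins and 3 integrins rose and 3 integrins fell, beside 27.0% higher and 23.0% lower, with medians of 0.79, 0.63 and 0.13 for the families and 0.043 for the 8278 genes. The control group had the lowest mean of the 4 groups for 16 of the 26 members. No share over all genes was taken for this count, and members entered by their highest group, so it is not read as a trait of the families. The 3 comparisons with control share the same 2 control arrays, so they are not independent of each other. Of the 26 members, 22 were called in at least 1 of 6 comparisons, beside 72.3% of the 8952 genes, and COL27A1, LAMC1, ITGA5 and ITGB8 in none.

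**Figure D1:**
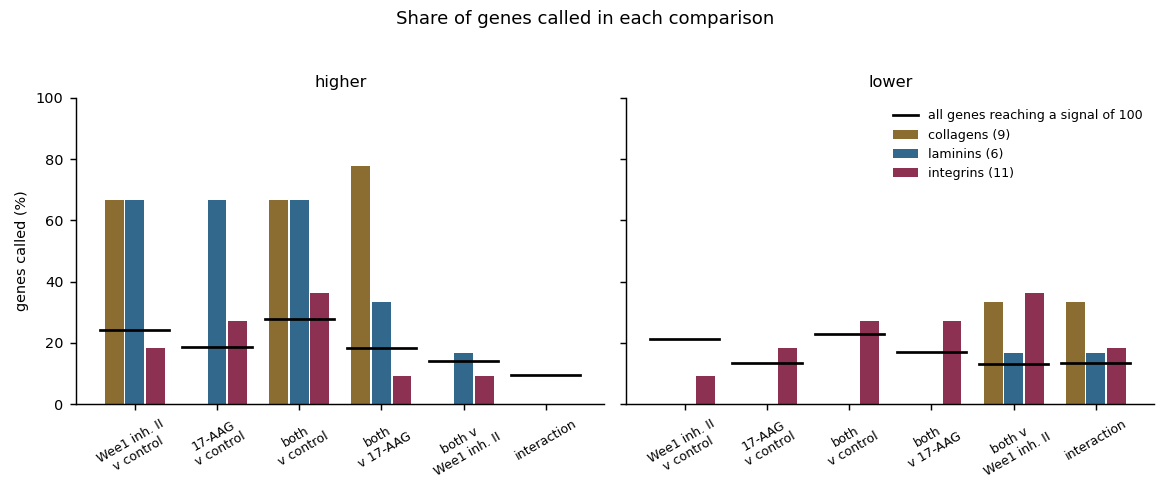
Share of the 9 collagens, 6 laminins and 11 integrins called higher (left) or lower (right) in each of 6 comparisons, in percent, with a black line for all 8952 genes that reached a signal of 100. The tallest bar is that of the collagens in both drugs against 17-AAG, where 7 of 9 were called higher, and no collagen or laminin was called lower in any of the 3 comparisons with control.

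The genes of the main type IV collagen chains, COL4A1 (probe set 211980_at) and COL4A2 (211964_at), rose with Wee1 inhibitor II with or without 17-AAG, and neither was called with 17-AAG alone. The pair lies head to head on chromosome 13 and its start sites face away from a short shared stretch, which is printed here because both genes moved together. In GRCh38.p14 (RefSeq) it spans chr13:110307158-110307283, 126 bases on the plus strand with a GC content of 80.2%, and the capitals mark its GC box, GGGCGG.
COL4A1 to COL4A2: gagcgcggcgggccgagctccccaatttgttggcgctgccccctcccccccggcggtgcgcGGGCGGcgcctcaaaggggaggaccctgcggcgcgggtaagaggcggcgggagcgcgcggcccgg

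COL4A1 had signals of 159.9 and 163 on the control arrays, 469, 441 and 474 with Wee1 inhibitor II, 191, 214 and 171 with 17-AAG and 365, 332 and 355 with both drugs. COL4A2 had 154 and 147 on the control arrays, 577, 475 and 495 with Wee1 inhibitor II, 138, 157 and 179 with 17-AAG and 359, 428 and 357 with both drugs. For both genes every array with Wee1 inhibitor II lay above every array without it, and the arrays with both drugs lay between those with the inhibitor alone and the rest. COL4A1 rose 2.85-fold with the inhibitor alone (log2 fold change 1.51 ± 0.11, SE of the limma fit; adjusted p = 7.99e-05) and 2.17-fold with both drugs (1.12 ± 0.11; adjusted p = 0.000166). COL4A2 rose 3.42-fold (1.77 ± 0.14; limma adjusted p = 0.000152) and 2.53-fold (1.34 ± 0.14; adjusted p = 0.000304). With 17-AAG alone their log2 fold changes were 0.24 (95% interval -0.0012 to 0.49) and 0.063 (-0.27 to 0.40), neither of which passed the test. The dimmer probe set of COL4A1, 211981_at, gave 1.06 ± 0.36 for the inhibitor alone and was not called in a fit across all probe sets (adjusted p = 0.0828).

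COL5A3 and COL13A1 had the largest increases of the 26 members with Wee1 inhibitor II alone, and both increases were smaller in the presence of 17-AAG (interaction, limma adjusted p = 0.00358 and 0.00346). COL5A3 (probe set 52255_s_at) encodes a chain of type V collagen, which joins fibrils of other collagens and limits their width. Its signals were 68.8 and 49.7 on the control arrays and 55.8, 57.3 and 72.1 with 17-AAG, against 429.9, 419 and 411 with Wee1 inhibitor II and 143, 151 and 132 with both drugs. The control and 17-AAG arrays overlapped, and the other groups overlapped with no group. COL5A3 rose 7.18-fold with the inhibitor alone (2.84 ± 0.16; limma adjusted p = 4.5e-05) and 2.31-fold with both drugs against 17-AAG (1.21 ± 0.15; adjusted p = 0.000971).

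COL13A1 (probe set 211343_s_at) encodes a collagen that spans the cell membrane and is found at contacts between cells and matrix. It gave 83.6 and 62.3 on the control arrays, 274, 316 and 334 with Wee1 inhibitor II, 74.9, 69.9 and 49.8 with 17-AAG and 71.1, 61.0 and 64.3 with both drugs. Only the arrays with the inhibitor alone were high, and the other 3 groups overlapped. COL13A1 rose 4.25-fold with the inhibitor alone (2.09 ± 0.20; limma adjusted p = 0.000301), whereas both drugs against 17-AAG gave 0.033 ± 0.18 (95% interval -0.38 to 0.45; adjusted p = 0.936). The stretches before the start sites of both genes are printed for comparison, in GRCh38.p14 (RefSeq). That of COL5A3 is chr19:10010505-10010754 on the minus strand, with the GC box GGGCGG in capitals. That of COL13A1 is chr10:69801656-69801905 on the plus strand, with TATAAA in capitals at 230 bases before the start site; it also overlaps a long non-coding RNA gene.
COL5A3: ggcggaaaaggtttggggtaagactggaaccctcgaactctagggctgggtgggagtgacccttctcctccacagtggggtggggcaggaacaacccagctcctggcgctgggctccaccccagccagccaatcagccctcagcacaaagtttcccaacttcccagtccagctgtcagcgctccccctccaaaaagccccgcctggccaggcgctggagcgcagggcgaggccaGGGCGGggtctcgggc
COL13A1: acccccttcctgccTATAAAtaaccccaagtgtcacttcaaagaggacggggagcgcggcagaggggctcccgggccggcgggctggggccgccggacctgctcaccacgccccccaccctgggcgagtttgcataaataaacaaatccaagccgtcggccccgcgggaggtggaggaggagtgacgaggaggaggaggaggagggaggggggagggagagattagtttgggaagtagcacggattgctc

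COL6A1, which encodes a chain of the type VI collagen of fine filaments around cells, had low signals in the groups without Wee1 inhibitor II. They were 42.6 and 58.9 on the control arrays and 36.8, 73.3 and 85.2 with 17-AAG, against 159, 184 and 174 with the inhibitor and 151, 163 and 136 with both drugs. All arrays with the inhibitor lay above all arrays without it. COL6A1 rose 3.43-fold with the inhibitor alone (1.78 ± 0.33; limma adjusted p = 0.00536) and 2.99-fold with both drugs (1.58 ± 0.33; adjusted p = 0.0075). Against 17-AAG the increase with both drugs was 1.29 ± 0.29 (adjusted p = 0.0172). Without control replicate 1 the value for both drugs against control was 1.34 (adjusted p = 0.0629), and against 17-AAG it was 1.28 without replicate 1 of both drugs and 1.23 without replicate 2 (adjusted p = 0.0521 and 0.0583).

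Both measured type IX collagen genes that reached 100, COL9A2 and COL9A3, had their highest signals with both drugs. Type IX collagen sits on the surface of cartilage fibrils. COL9A2 had 62.7 and 46.3 on the control arrays, 72.2, 88.7 and 94.3 with Wee1 inhibitor II, 61.2, 72.4 and 72.7 with 17-AAG and 130.3, 112 and 110.3 with both drugs, and COL9A3 had 684 and 732, 880.3, 794 and 929, 607, 554 and 606 and 1006, 939.9 and 999 in the same order. In both genes the arrays with both drugs lay above all others, and in COL9A3 the 17-AAG arrays lay below all others. Against 17-AAG, with both drugs COL9A2 rose 1.71-fold (0.77 ± 0.16; limma adjusted p = 0.0103) and COL9A3 1.67-fold (0.74 ± 0.086; adjusted p = 0.000832). COL9A2 also rose with the inhibitor alone (0.65 ± 0.17; adjusted p = 0.0273), a call lost without control replicate 3 (0.43; adjusted p = 0.192), Wee1 inhibitor II replicate 2 (0.61; 0.072) or replicate 3 (0.57; 0.0795). Against control, COL9A2 rose by 1.12 ± 0.17 with both drugs (limma adjusted p = 0.00178) and COL9A3 by 0.47 ± 0.10 (adjusted p = 0.00692), the latter lost without control replicate 1 (0.42; adjusted p = 0.0549). On the other COL9A2 probe set none of its 3 calls held, with 0.89 for the inhibitor (limma adjusted p = 0.550), 1.53 for both drugs (0.251) and 0.16 for both drugs against 17-AAG (0.931). In RefSeq the COL9A3 gene overlaps TCFL5, and the arrays do not show which of them a signal came from where their transcripts overlap.

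COL16A1, a collagen found beside fibrils, passed the test only in both drugs against 17-AAG, 1.44 ± 0.39 (limma adjusted p = 0.0368). Its signals were 48.6, 63.5 and 22.6 with 17-AAG and 75.7, 136 and 136 with both drugs, beside 58.8 and 74.9 in controls and 96.6, 69.6 and 75.0 with the inhibitor. This call was lost on leaving out any 1 of 9 of the 11 arrays, with values of 1.01 to 1.56 and adjusted p of 0.051 to 0.114. The fibrillar collagen gene COL27A1 ranged from 104 to 186 over the 11 arrays and was called in no comparison. LUM, the fibroblast marker with a group mean over 100, fell by 1.73 on the log2 scale with Wee1 inhibitor II and by 0.63 with both drugs and rose by 0.71 with 17-AAG (limma adjusted p = 4.88e-05, 0.00224 and 0.00338). COL1A1, COL1A2 and COL3A1, the fibrillar collagens that define fibroblasts, had at most 109, 29.6 and 7.95 on any of the 11 arrays. The part of this list in the collagen results was not tested.

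**Figure D2:**
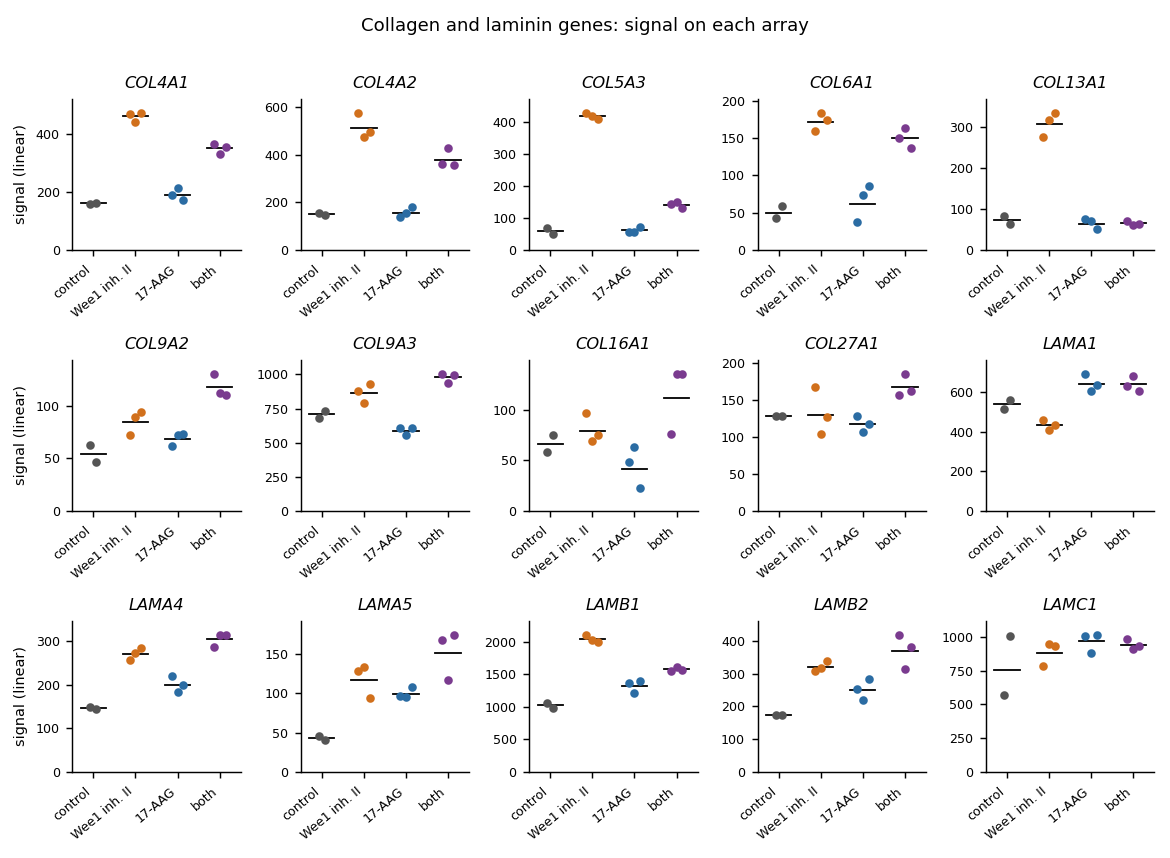
Signal (linear) of the 9 collagen and 6 laminin genes on each of 11 arrays, by group. Points are arrays and bars are geometric means of a group. The arrays with Wee1 inhibitor II, alone or with 17-AAG, sit above the control and 17-AAG arrays for COL4A1, COL4A2, COL5A3 and COL6A1, and COL13A1 is high with the inhibitor alone.

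Among the laminins, LAMA4, LAMA5, LAMB1 and LAMB2 rose in each of the 3 comparisons with control, while LAMA1 and LAMC1 were called in none of them. LAMB1 and LAMB2 encode beta chains, of which each laminin holds 1, and LAMA4 and LAMA5 encode alpha chains, which carry the main binding site for integrins. LAMB1 (probe set 201505_at) had signals of 1055 and 989 on the control arrays, 2109.7, 2028 and 1998 with Wee1 inhibitor II, 1366, 1209 and 1403 with 17-AAG and 1553, 1616 and 1566 with both drugs, and no 2 groups overlapped. LAMB1 rose 2-fold with the inhibitor alone (1.00 ± 0.089; limma adjusted p = 0.00021) and 1.55-fold with both drugs (0.63 ± 0.089; adjusted p = 0.00115). The increase with 17-AAG alone, 0.37 ± 0.089 (adjusted p = 0.0238), was lost without either control array or without 17-AAG replicate 1 or 3, with values of 0.33 to 0.42 and adjusted p of 0.0715 to 0.137. The 250 bases before its start site, chr7:108003162-108003411 on the minus strand of GRCh38.p14 (RefSeq), are printed because LAMB1 rose in all 3 comparisons and its interaction was called; the capitals mark 4 GC boxes, GGGCGG or its complement CCGCCC, the last 2 of which overlap.
LAMB1: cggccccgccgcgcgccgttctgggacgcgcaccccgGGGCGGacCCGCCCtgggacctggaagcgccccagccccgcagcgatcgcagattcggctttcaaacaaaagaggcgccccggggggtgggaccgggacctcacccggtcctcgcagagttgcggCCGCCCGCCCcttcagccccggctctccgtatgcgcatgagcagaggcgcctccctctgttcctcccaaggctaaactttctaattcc

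LAMB2 had 172 and 174 on the control arrays, 307, 316 and 339 with Wee1 inhibitor II, 254, 221 and 284 with 17-AAG and 419, 313 and 382 with both drugs. Its control arrays lay below all others, and the arrays with both drugs overlapped those with the inhibitor alone. LAMB2 rose 1.85-fold with the inhibitor (0.89 ± 0.15; limma adjusted p = 0.00323) and 2.13-fold with both drugs (1.09 ± 0.15; adjusted p = 0.000888). With 17-AAG alone it rose by 0.54 ± 0.15 (adjusted p = 0.0398), a call lost on leaving out any 1 of 8 arrays (values 0.45 to 0.55, adjusted p 0.0582 to 0.155). Both drugs against 17-AAG gave 0.55 ± 0.13 (adjusted p = 0.0212), lost without 17-AAG replicate 1 or 2 or replicate 1 or 3 of both drugs (values 0.46 to 0.56, adjusted p 0.0584 to 0.0701).

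LAMA5, the alpha chain of many epithelial basement membranes, had 45.7 and 40.9 on the control arrays, 128, 133 and 94.0 with Wee1 inhibitor II, 95.8, 94.7 and 108 with 17-AAG and 167, 117 and 174 with both drugs. The control arrays were the lowest. The arrays with the inhibitor alone overlapped both other treated groups, and the 17-AAG arrays lay below those with both drugs. LAMA5 rose 2.71-fold with the inhibitor (1.44 ± 0.21; limma adjusted p = 0.0018), 2.3-fold with 17-AAG (1.20 ± 0.21; adjusted p = 0.00704) and 3.48-fold with both (1.80 ± 0.21; adjusted p = 0.000429). Without control replicate 3 the value for 17-AAG was 1.12 (adjusted p = 0.053).

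LAMA4, the alpha chain known from vessel walls and muscle, had 149 and 145 on the control arrays, 256, 273 and 284 with Wee1 inhibitor II, 219.8, 182 and 198 with 17-AAG and 287, 313 and 314 with both drugs. No 2 groups overlapped, with both drugs highest and control lowest. LAMA4 rose by 0.88 ± 0.10 with the inhibitor (limma adjusted p = 0.000659), by 0.44 ± 0.10 with 17-AAG (adjusted p = 0.0223) and by 1.05 ± 0.10 with both drugs (adjusted p = 0.00019), and by 0.61 ± 0.092 with both drugs against 17-AAG (adjusted p = 0.00284). The call for 17-AAG was lost without either control array or without 17-AAG replicate 1 or 3 (values 0.37 to 0.46, adjusted p 0.0598 to 0.115). These values come from probe set 202202_s_at. The next brightest LAMA4 probe set, 210089_s_at, went the other way without passing the test, with log2 fold changes of -0.44, -0.15 and -0.32 for the inhibitor, 17-AAG and both drugs, so the direction of LAMA4 rests on the probe set.

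LAMA1, an alpha chain of embryonic basement membranes, had 516 and 560.2 on the control arrays, 460.0, 406 and 436 with Wee1 inhibitor II, 693, 604 and 634 with 17-AAG and 629.8, 683 and 606 with both drugs. The arrays with the inhibitor alone were the lowest and overlapped with no other group. Against control the difference was -0.31 ± 0.10 and did not pass the test (limma adjusted p = 0.0584), whereas both drugs against the inhibitor alone gave an increase of 0.56 ± 0.091 (adjusted p = 0.00463). LAMC1, the gamma chain shared by most laminins, had 572 and 1005 on the control arrays, 2 values further apart than those of any treated group, and 572 to 1019 over the 11 arrays. It was called in no comparison on probe set 200771_at, but its next brightest probe set, 200770_s_at, was higher with Wee1 inhibitor II (0.96 ± 0.10; adjusted p = 0.000691 in a limma fit across all probe sets), 17-AAG (0.70 ± 0.10; adjusted p = 0.00518) and both drugs (0.75 ± 0.10; adjusted p = 0.00124). On the arrays with 17-AAG, alone or with the inhibitor, the ACTB signals at the 3-prime and 5-prime ends lay 0.96 ± 0.08 and 0.96 ± 0.05 apart (log2, SD, n = 3 each), beside 0.69 ± 0.03 in controls (n = 2) and 0.68 ± 0.09 with the inhibitor alone (n = 3). The part of this measure of RNA integrity, and of the pigment cell markers, of which 9 of 11 rose with 17-AAG and 11 of 11 with both drugs (limma), in these results was not tested.

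The beta subunits of integrins differed in direction. ITGB5, which pairs with the alpha-V subunit to bind vitronectin, had signals of 768 and 801 on the control arrays, 1449.8, 1399 and 1505 with Wee1 inhibitor II, 998, 955 and 989 with 17-AAG and 842, 791 and 778 with both drugs. The arrays with the inhibitor alone were the highest, and those with both drugs overlapped the controls. ITGB5 rose 1.85-fold with the inhibitor alone (0.89 ± 0.077; limma adjusted p = 0.000198), and with both drugs it was at 0.035 ± 0.077 against control (95% interval -0.14 to 0.21; adjusted p = 0.806). On its second brightest probe set the inhibitor gave 0.064 (limma adjusted p = 0.879) and 17-AAG -0.27 (0.476), so these calls rest on the probe set. It rose by 0.32 ± 0.077 with 17-AAG alone (adjusted p = 0.0247), and both drugs against 17-AAG gave -0.29 ± 0.069 (adjusted p = 0.0221). Each of these smaller changes was lost on leaving out any 1 of 4 arrays: 17-AAG replicate 1 or 3 for both, either control array for the first and replicate 2 or 3 of both drugs for the second. The first was then 0.29 to 0.35 (adjusted p 0.0707 to 0.135) and the second -0.28 to -0.26 (adjusted p 0.0651 to 0.0791). Of its 3 other probe sets, 214021_x_at and 201124_at were also higher with the inhibitor alone (1.06 and 0.87; adjusted p = 0.0013 and 0.016 in limma over all probe sets), and 214020_x_at gave 0.064 (adjusted p = 0.868).

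ITGB1, the beta subunit of most receptors for collagen, laminin and fibronectin, had 3220.1 and 3318 on the control arrays, 4137, 4424 and 4743 with Wee1 inhibitor II, 3668, 3949.7 and 3649 with 17-AAG and 3623, 3556 and 3508 with both drugs. Its arrays with the inhibitor alone lay above all others. ITGB1 rose 1.35-fold with the inhibitor alone (0.44 ± 0.085; limma adjusted p = 0.00689) and fell from there with both drugs (-0.31 ± 0.076; adjusted p = 0.0287). The fall was lost without any 1 array of both drugs or without Wee1 inhibitor II replicate 2 or 3 (values -0.33 to -0.26, adjusted p 0.0724 to 0.0961). The rise with the inhibitor alone held without each array in turn and on the second brightest probe set (0.46, limma adjusted p = 0.020). That rise was not called with each array centred on its median, with the 7 probe sets averaged or with only the arrays compared in the fit.

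ITGB3, which pairs with the alpha-V subunit and is known from platelets and melanoma, had 481 and 457 on the control arrays, 519, 484 and 470.4 with Wee1 inhibitor II, 345, 328 and 349 with 17-AAG and 279, 289.6 and 276 with both drugs. The 2 groups without 17-AAG overlapped, the 17-AAG arrays lay below them and those with both drugs were the lowest. ITGB3 fell with 17-AAG (log2 fold change -0.46 ± 0.079; limma adjusted p = 0.00676), with both drugs (-0.73 ± 0.079; adjusted p = 0.000302) and with both drugs against the inhibitor alone (-0.80 ± 0.071; adjusted p = 0.000211). Both drugs against 17-AAG gave -0.27 ± 0.071 (adjusted p = 0.03), lost on leaving out any 1 of 5 of the 6 arrays compared (values -0.29 to -0.26, adjusted p 0.0595 to 0.0946), and without control replicate 1 the value for 17-AAG was -0.42 (adjusted p = 0.0519). On the second brightest of its 7 probe sets the value with 17-AAG was -0.46 (limma adjusted p = 0.347), and both drugs against the inhibitor gave -0.56 (0.210). The call for both drugs against control held there. With the 7 probe sets averaged, the calls of ITGB3 with 17-AAG and with both drugs against control were lost. The call for both drugs against the inhibitor held with that average. ITGB8, another partner of the alpha-V subunit, ranged from 2204 to 3219.7 and was called in no comparison.

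ITGAV, the alpha subunit that these beta subunits share, had 1911 and 1672 on the control arrays, 2040.2, 2161 and 2306 with Wee1 inhibitor II, 2502, 2379 and 2619.9 with 17-AAG and 2459, 2403 and 2375 with both drugs. All treated arrays lay above the controls. It rose by 0.48 ± 0.094 with 17-AAG (limma adjusted p = 0.0108) and by 0.43 ± 0.094 with both drugs (adjusted p = 0.00957), and neither call held without control replicate 3 (0.39 and 0.34; adjusted p = 0.0817 and 0.0809). The inhibitor alone gave 0.28 ± 0.094 (adjusted p = 0.0671).

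ITGA9, whose receptor binds tenascin and osteopontin, had 327 and 336 on the control arrays, 349.8, 315 and 356 with Wee1 inhibitor II, 599, 515 and 588 with 17-AAG and 749, 740.4 and 741 with both drugs. The first 2 groups overlapped, the 17-AAG arrays were higher and those with both drugs higher still, with no overlap. ITGA9 rose 1.71-fold with 17-AAG (0.77 ± 0.10; limma adjusted p = 0.00194) and 2.24-fold with both drugs (1.17 ± 0.10; adjusted p = 8.31e-05). Both drugs exceeded 17-AAG by 0.39 ± 0.085 (adjusted p = 0.0142), whereas the inhibitor alone gave 0.035 ± 0.10 against control (95% interval -0.18 to 0.25; adjusted p = 0.848). These calls rest on 1 of 4 probe sets: on the second brightest, 17-AAG gave 0.29 (limma adjusted p = 0.419), both drugs 0.49 against control (0.108) and 0.20 against 17-AAG (0.525), and with the 4 averaged none was called.

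ITGAE, which pairs with the beta-7 subunit on lymphocytes that bind E-cadherin, fell in each comparison with control. Its signals were 2024 and 2233 on the control arrays, 1013, 1092 and 995 with Wee1 inhibitor II, 1523, 1681 and 1417 with 17-AAG and 961, 959 and 998 with both drugs. The groups with the inhibitor overlapped each other and lay below the rest, and the 17-AAG arrays lay below the controls. ITGAE fell with the inhibitor (log2 fold change -1.04 ± 0.10; limma adjusted p = 0.000263), with both drugs (-1.13 ± 0.10; adjusted p = 0.00011) and with both drugs against 17-AAG (-0.66 ± 0.088; adjusted p = 0.00161). Its fall with 17-AAG alone was -0.47 ± 0.10 (adjusted p = 0.0145), which without control replicate 3 was -0.40 (adjusted p = 0.101). ITGB7, the gene of the beta-7 subunit, stayed at 1.98 to 21.8 over the 11 arrays. In RefSeq the ITGAE gene overlaps the protein-coding gene P2RX5. The gene of the mitotic kinase haspin, HASPIN, lies inside the ITGAE gene in RefSeq; its own probe set gave -0.21 with the inhibitor (adjusted p = 0.428), 0.011 with 17-AAG (0.976) and -1.18 with both drugs (0.00108).

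Of the alpha subunits that bind laminin or collagen, ITGA6 fell and ITGA2 and ITGA7 rose with both drugs, and each of these calls was lost without certain single arrays. ITGA6, a laminin receptor subunit, had 1972 and 1976 on the control arrays, 1866, 2149.7 and 1938 with Wee1 inhibitor II, 1762, 1438 and 1767 with 17-AAG and 1529, 1315 and 1513 with both drugs, and its arrays with both drugs lay below those of both groups without 17-AAG. With both drugs it fell against control (-0.45 ± 0.12; limma adjusted p = 0.0289) and against the inhibitor alone (-0.45 ± 0.11; adjusted p = 0.0305). The first was lost on leaving out any 1 of 4 arrays, both controls among them (values -0.48 to -0.38, adjusted p 0.0516 to 0.116), and the second on leaving out any 1 of the 6 arrays compared (-0.49 to -0.38, adjusted p 0.0526 to 0.0989).

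ITGA2, a collagen receptor subunit, had 105 and 73.8 on the control arrays, 145, 136 and 119 with Wee1 inhibitor II, 162, 102 and 176 with 17-AAG and 166, 218 and 159.9 with both drugs, and ITGA7, a laminin receptor subunit of muscle, had 54.0 and 41.8, 93.3, 58.7 and 45.8, 92.2, 61.8 and 106 and 82.0, 119.5 and 103 in the same order. For both genes the arrays with both drugs lay above the controls and overlapped those with 17-AAG. With both drugs ITGA2 rose by 1.03 ± 0.27 (limma adjusted p = 0.0206) and ITGA7 by 1.08 ± 0.34 (adjusted p = 0.0467). Without control replicate 3 the values were 0.78 (adjusted p = 0.152) and 0.89 (adjusted p = 0.23). The call of ITGA2 was also lost without replicate 2 of both drugs (0.89; adjusted p = 0.0616), and that of ITGA7 without any 1 of 8 arrays (up to 1.26, adjusted p from 0.0537). The other probe set of ITGA2 gave 0.29 (adjusted p = 0.373) and that of ITGA7 1.17 (0.0950). In RefSeq the ITGA7 gene overlaps the protein-coding genes BLOC1S1 and TMT1B. The fibronectin receptor gene ITGA5 stayed at 129.7 to 192 and was called in no comparison.

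**Figure D3:**
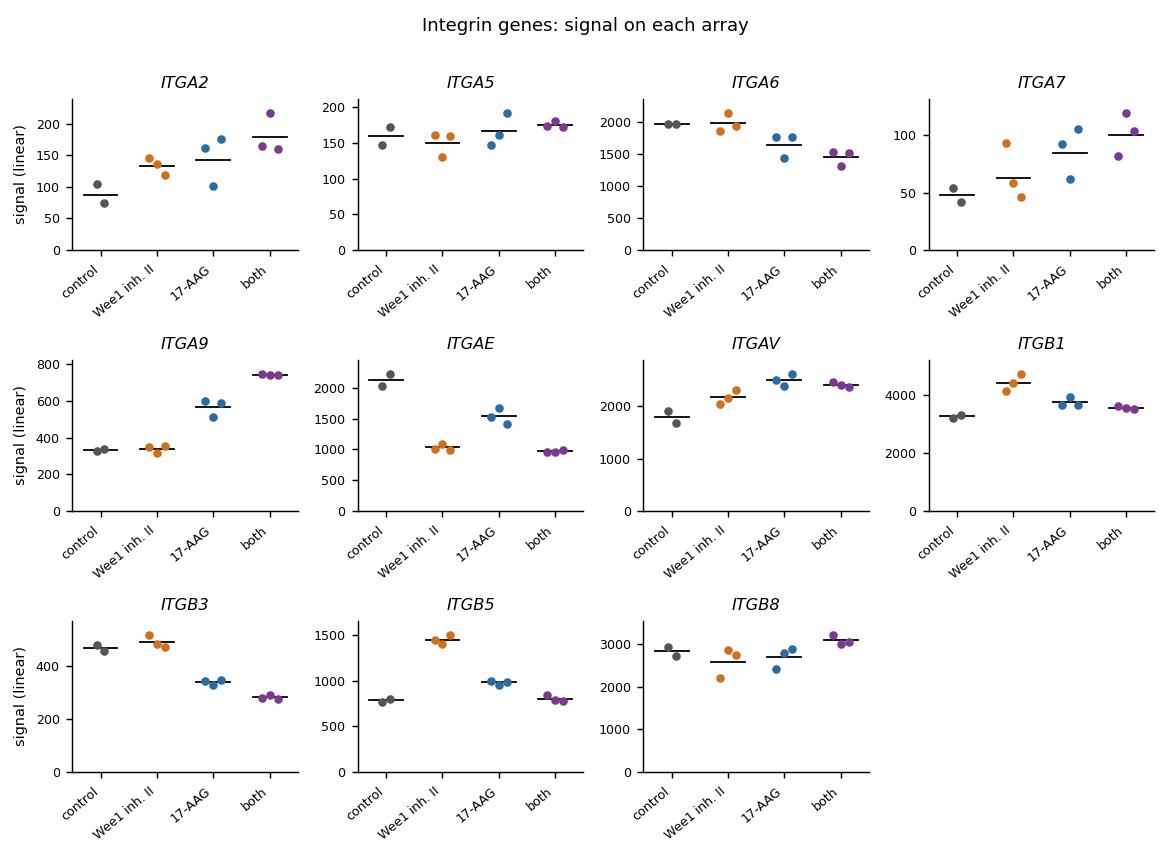
Signal (linear) of the 11 integrin genes on each of 11 arrays, by group. Points are arrays and bars are geometric means of a group. ITGB5 and ITGB1 are highest with Wee1 inhibitor II alone, ITGA9 rises and ITGB3 falls on the arrays with 17-AAG, and ITGAE is lowest on the arrays with the inhibitor.

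Both drugs, with 17-AAG given after the inhibitor, were compared with 17-AAG alone, which gave higher signals of 7 of 9 collagens, 2 of 6 laminins (LAMA4 and LAMB2) and 1 of 11 integrins (ITGA9), and lower signals of 3 integrins (ITGAE, ITGB3 and ITGB5). The background was 18.4% higher and 17.0% lower. Of the 21 members with a mean of at least 100, 7 were higher and 3 lower, beside 17.6% and 17.3%. With each array centred on its median, which moved the median of all genes in this comparison from 0.10 to -0.10, the split was 5 higher and 3 lower in place of 10 and 3. The increases of COL4A1 and COL4A2 against 17-AAG were 0.87 ± 0.095 (limma adjusted p = 0.000594) and 1.28 ± 0.13 (adjusted p = 0.00044). Adding 17-AAG to Wee1 inhibitor II was followed by lower signals of 8 members and higher signals of 2 (ITGA9 and LAMA1), against a background of 14.1% higher and 13.2% lower. All 10 are among the 21, beside 14.1% and 13.1%. The 8 were COL4A1, COL5A3, COL13A1, LAMB1, ITGA6, ITGB1, ITGB3 and ITGB5. The log2 fold change was -1.57 ± 0.15 for COL5A3 (limma adjusted p = 0.000267), -2.23 ± 0.18 for COL13A1 (adjusted p = 0.000142) and -0.85 ± 0.069 for ITGB5 (adjusted p = 0.000142). The count of 10 was 6 without replicate 1 or without replicate 3 of both drugs. The fall of COL4A1, -0.40 ± 0.095 (adjusted p = 0.0272), was lost without any 1 of the 6 arrays compared (values -0.43 to -0.36, adjusted p 0.0518 to 0.0902), and that of LAMB1, -0.37 ± 0.079 (adjusted p = 0.0163), without replicate 1 or 3 of both drugs or Wee1 inhibitor II replicate 1 (-0.37 to -0.35, adjusted p 0.0559 to 0.0586).

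The interaction, the effect of Wee1 inhibitor II with 17-AAG minus its effect without it on the log2 scale, was called below 0 for 6 members and above 0 for none, while 3 members had an unadjusted p under 0.05 above 0 in limma. The background was 9.60% above and 13.5% below 0, or 9.69% and 13.4% of genes with a mean of at least 100, and after quantile normalisation 1 member was called above 0 and 6 below. The 6 were COL13A1 (-2.05 ± 0.27), COL5A3 (-1.64 ± 0.22), ITGB5 (-1.17 ± 0.10), LAMB1 (-0.75 ± 0.12), COL4A1 (-0.64 ± 0.14) and ITGB1 (-0.51 ± 0.11). Their adjusted p in limma were 0.00346, 0.00358, 0.000961, 0.00694, 0.0254 and 0.0254. These genes rose with the inhibitor alone by 0.44 to 2.84, and with 17-AAG present the inhibitor gave 0.033, 1.21, -0.29, 0.25, 0.87 and -0.075 in the same order. The calls of COL4A1 and ITGB1 were lost on leaving out any 1 of 7 and 8 of the 11 arrays (COL4A1 -0.65 to -0.60, adjusted p 0.0551 to 0.0848; ITGB1 -0.53 to -0.46, adjusted p 0.0519 to 0.0877), and those of the other 4 held without each array in turn. On the second brightest probe set of each gene the interaction was called for COL5A3 (-2.05; limma adjusted p = 0.0258) and LAMB1 (-0.86; 0.0232). It was not called there for COL13A1 (-1.30; 0.312), ITGB1 (-0.54; 0.0659), ITGB5 (-0.038; 0.961) and COL4A1 (0.0091; 0.995). With the probe sets of a gene averaged, ITGB1 gave -0.063 and COL4A1 -0.31, neither of them called, and the other 4 were called. The lower signals of COL13A1, COL4A1, ITGB1, ITGB3, ITGB5 and LAMB1 and the higher ones of ITGA9 and LAMA1 with both drugs against Wee1 inhibitor II were also not called on the second brightest probe set (limma adjusted p 0.0513 to 0.837), nor were the changes of LAMB1 with 17-AAG (0.45; adjusted p = 0.0526) and of COL4A1 with both drugs against control (0.88; 0.143) and against 17-AAG (1.07; 0.0758). For COL4A2 the interaction was -0.50 ± 0.19 and did not pass the test (adjusted p = 0.154).

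**Figure D4:**
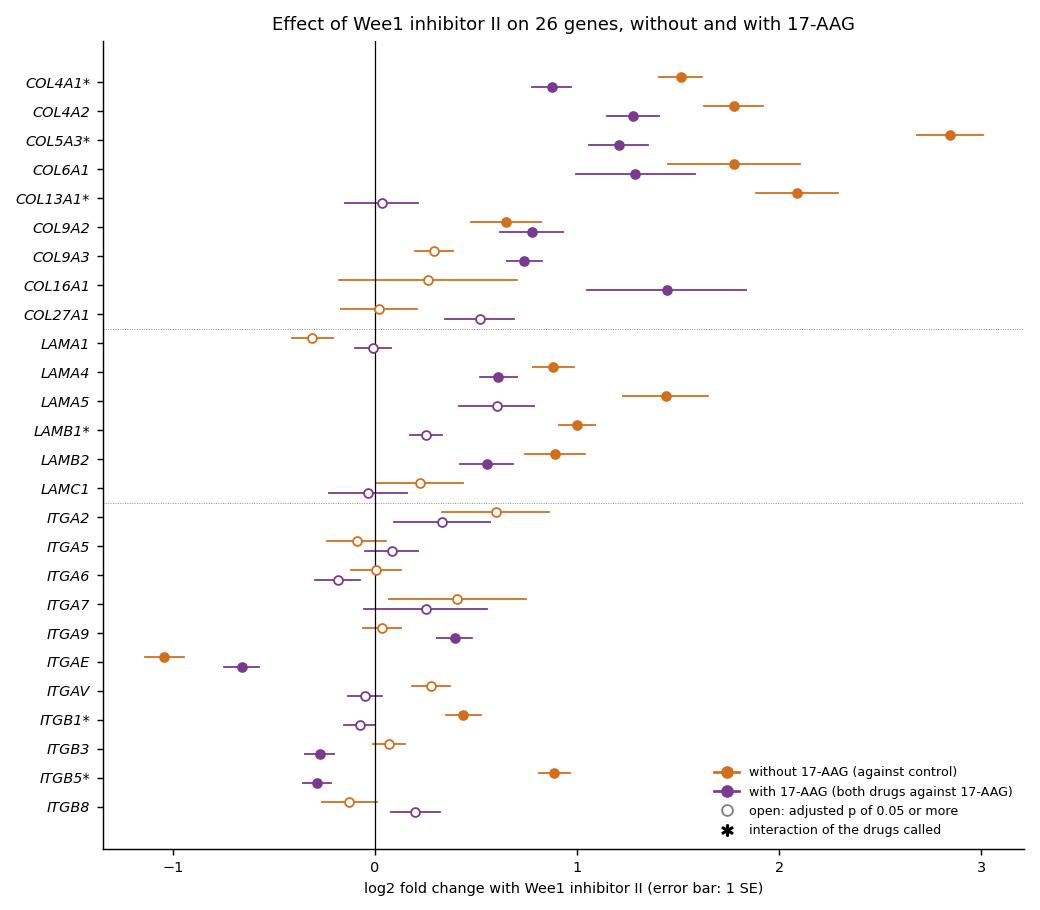
Log2 fold change with Wee1 inhibitor II for the 26 genes, without 17-AAG (inhibitor alone against control) and with it (both drugs against 17-AAG). Points are estimates of the limma fit, bars are 1 SE, open points did not pass the test, and a star marks the 6 genes with a called interaction; for COL13A1 the 2 estimates are 2.09 and 0.033.

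Of the 52 members that stayed below 100 in every group, 7 were called higher with Wee1 inhibitor II alone. Of the 10823 genes that stayed below 100, 6.57% were called higher and 1.40% lower. The 7 were the type IV chains COL4A5 and COL4A6, COL6A2, COL9A1, ITGA3, ITGA4 and LAMC3. COL4A5 had 4.22 and 1.83 on the control arrays, 47.1, 18.3 and 25.6 with the inhibitor, 5.45, 3.67 and 11.8 with 17-AAG and 58.3, 56.2 and 56.5 with both drugs (limma adjusted p = 0.00385 for the inhibitor and 0.000789 for both drugs). The control signals of COL4A5, COL4A6, COL9A1 and LAMC3 lay below the median signal of their array (17.7 to 23.1 over the 11), so no size is given for their differences. ITGA4, which pairs with ITGB1 to bind fibronectin and VCAM1, had 27.6 and 32.3 on the control arrays, 59.3, 59.1 and 52.6 with the inhibitor, 24.1, 29.4 and 22.4 with 17-AAG and 31.1, 28.4 and 28.5 with both drugs, and was called higher with the inhibitor alone (0.93 ± 0.14; adjusted p = 0.00183). COL6A2, the partner of COL6A1, rose by 1.20 ± 0.25 with the inhibitor (adjusted p = 0.0102), 0.94 and no longer called (adjusted p = 0.0823) without control replicate 1. Calls of COL4A6, COL9A1, ITGA3 and LAMC3 were lost without any 1 of 7, 9, 3 and 3 arrays, and that of ITGA3 ranged from 1.05 to 1.68 over all 11 left out in turn. With 17-AAG alone 1 of the 52 was called, COL6A3, a chain of type VI collagen, at 1.28, 1.46 and 2.43 against 18.3 and 12.8 in controls. All 11 of its signals lay below the median of their array, so neither this call nor that with both drugs is read as a difference in level; the background was 2.77% higher and 1.15% lower. With both drugs 4 were called higher (COL4A5, COL6A2, COL11A2 and LAMC3) and COL6A3 lower, beside 7.44% and 1.80%.

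Genes that act with these families were taken from 5 lists, of which those that reached a signal of 100 are counted, beside the background shares given above. Of 25 focal adhesion and integrin adaptor genes, 12 were called higher and 2 lower with Wee1 inhibitor II, 6 and 1 with 17-AAG, and 10 and 2 with both drugs. ILK, a kinase-like adaptor bound to the tails of beta subunits, went from 213 in controls to 593, 492 and 553 (log2 fold changes 1.48, 1.21 and 1.38 for the inhibitor, 17-AAG and both drugs), and LPP and NEDD9, adaptors at focal adhesions, from 505 to 1030.0, 778 and 987 and from 831 to 1294, 1436 and 1674. Of 19 enzymes of collagen synthesis and crosslinking, 8 were higher and 3 lower with the inhibitor, 3 and 3 with 17-AAG, and 7 and 3 with both drugs. P3H4 and CRTAP, members of complexes that modify collagen in the endoplasmic reticulum, and P3H3 rose in all 3 comparisons; P3H4 went from 210.2 to 531, 368 and 496.

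Of 9 other matrix glycoproteins and basement membrane partners, 4 were higher and 2 lower with the inhibitor, 2 and 2 with 17-AAG, and 4 and 3 with both drugs. Of 7 other matrix receptors the counts were 3 and 1, 2 and 2, and 2 and 1. DDR2, a receptor kinase that fibrillar collagens activate, rose from 134 to 688 with the inhibitor, 393 with 17-AAG and 565 with both drugs (2.36, 1.55 and 2.07; limma adjusted p = 9.53e-05, 0.00133 and 9.21e-05), and the hyaluronan receptor gene HMMR fell from 2376 to 1637, 1685 and 799.6. Of 15 matrix metalloproteinases, inhibitors and genes of the plasminogen system, 7 were higher and 2 lower with the inhibitor, 2 and 3 with 17-AAG, and 5 and 2 with both drugs. The collagenase gene MMP8 fell from 799 to 181, 213 and 157, and the metalloproteinase gene ADAM9 rose from 2401 to 4066, 3591 and 3750.4. Among these named genes the calls with 17-AAG of P3H3, CRTAP, LPP, HMMR and ADAM9 and those with the inhibitor of CRTAP and HMMR were lost without 1 or more single arrays, where they ranged from 0.45 to 0.56, 0.36 to 0.46, 0.53 to 0.72, -0.56 to -0.43 and 0.52 to 0.64, and from 0.31 to 0.42 and -0.65 to -0.47, over the 11 left out in turn.

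Promoter windows, the 250 bases before a listed start site, were found in RefSeq (GRCh38.p14) for 20 of the 26 members, 25 windows in all, and 5 motifs were searched on both strands. The GC box GGGCGG was in 17 of the 25 windows (68%), beside 42.5% of all 34943 windows, and GGAATG, a site of TEAD factors, in 2 (8%) beside 11.9%. TATAAA, the TATA box, was in 3 (12%) beside 10.8%, and CACGTG, an E-box, in 1 (4%) beside 6.32%. TGANTCA, an AP-1 site, was in none of the 25, beside 6.59% of all windows. These are matches of letters only, and the windows of COL4A1 and COL4A2 share 126 of their 250 bases.

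Control replicate 2, the array described above with 5 of 10 markers of PC3 or prostate epithelium at 100 and a summed pigment cell marker signal of 375, differed from the 11 other arrays in the collagen, laminin and integrin genes in both directions. Pearson's r of its log2 signals across probe sets with the others was 0.825 to 0.833, beside at least 0.913 between any 2 of the 11. Of the 78 members, 10 lay at least 4-fold above the highest of the 11 others and 4 at least 4-fold below the lowest, at a signal of at least 200 on the higher side. Over all 19775 genes, 391 lay as far above and 276 as far below. COL6A1 had a signal of 4815 there, against at most 184 on the 11 others, and COL9A3 one of 4.48, against at least 554. With this array, whose markers differ from those of the other 2 controls, in the fit, 4 members were called in Wee1 inhibitor II against control in place of 13, and 3 in place of 17 with both drugs. No share over all genes was taken in that fit.

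**Figure D5:**
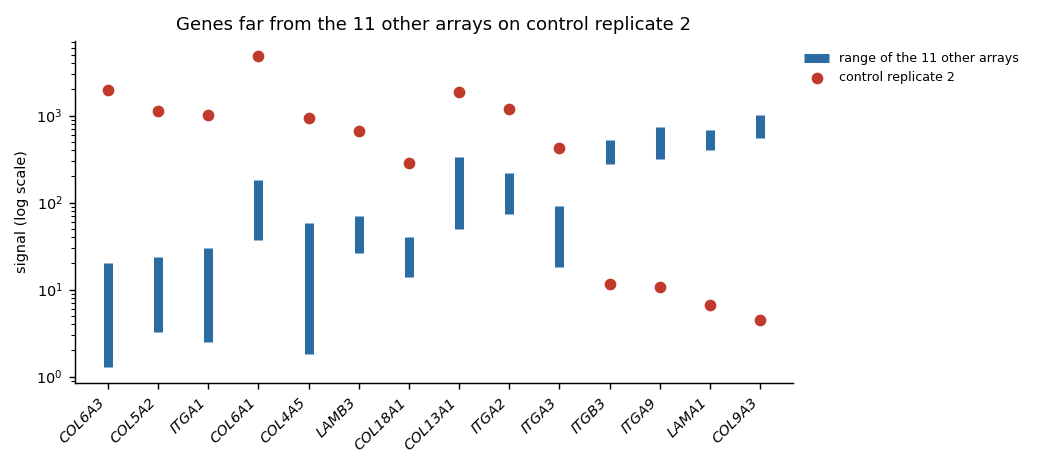
Signal (log scale) of the 14 member genes that lay at least 4-fold outside the range of the 11 other arrays on control replicate 2. Bars span the lowest to the highest of the 11 arrays and points are control replicate 2. Of the 78 members 10 lie above, such as COL6A1 at 4815, and 4 below, such as COL9A3 at 4.48. Over all 19775 genes, 391 lay as far above and 276 as far below.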

How the data were processed

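RNA from 12 samples was measured on Affymetrix arrays of 54675 probe sets. The values are the authors' deposited signals, an intensity on a linear scale; per the submitters' processing notes, Partek 6.5 and RMA were used, but RMA gives log2 values, so how the linear intensity was made is not given in the sources used here. Control replicate 2, which the submitters removed, was left out of every test except 1 alternative. Of the probe sets, 41097 had 1 gene symbol, 1801 several, 11721 none listed, and 62 were array controls; 42 symbols were not found by gene ID. Each of 19775 genes was taken from its brightest probe set with 1 symbol.

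Log2 signals of the 11 arrays were fitted with limma 3.58.1 in R 4.3.3 with 1 mean per group (7 residual degrees of freedom), moderated standard errors and Benjamini-Hochberg adjustment over all genes in each of 6 comparisons. The threshold for a call was an adjusted p under 0.05, and members were counted where a group mean reached 100. Named members were those called at least once, and named list genes those called in all 3 comparisons with control in 1 direction. The fit was tested on simulated data. The number of arrays limits the precision. The members and lists were chosen with earlier results of these data known. Alternatives covered scaling, probe set choice, dim genes, control replicate 2, a replicate block and each array left out.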

Additional observations from a re-analysis of the deposited data

Results flagged for a closer look

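For 6 genes the effect of Wee1 inhibitor II differed with and without 17-AAG by the interaction term of the limma fit. The interactions were -2.05 for COL13A1, -1.64 for COL5A3, -1.17 for ITGB5, -0.75 for LAMB1, -0.64 for COL4A1 and -0.51 for ITGB1 on the log2 scale. Among all 8952 genes that reached 100, 13.5% were called below 0. The calls of COL4A1 and ITGB1 were lost on leaving out any 1 of 7 and 8 arrays. On the second brightest probe set only COL5A3 and LAMB1 were called.

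Control replicate 2, which was used in 1 alternative alone and whose cell type markers differed from those of the 11 other arrays, carried 10 genes of these families at least 4-fold above the highest of the 11 other arrays. Its signals were 4815 for COL6A1, 1971 for COL6A3, 1889 for COL13A1, 1199 for ITGA2, 1122 for COL5A2 and 1012 for ITGA1. They were 936 for COL4A5, 668 for LAMB3, 430.1 for ITGA3 and 286 for COL18A1. Over all genes, 391 of 19775 lay as far above and 276 as far below the other arrays.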

How the results depend on the processing

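Counts of members called are given for Wee1 inhibitor II, 17-AAG and both drugs against control, both drugs against 17-AAG and against Wee1 inhibitor II, and the interaction, which were 13, 9, 17, 13, 10 and 6. With control replicate 2 included they were 4, 0, 3, 1, 0 and 0; for the 3 counts of 0, 5 (17-AAG), 5 (against Wee1 inhibitor II) and 3 (interaction) members had an unadjusted p under 0.05 in limma. There COL6A1 turned to -0.42 (inhibitor) and -0.62 (both drugs), ITGB3 to 1.32 (17-AAG) and 1.05 (both drugs) and ITGA2 to -0.23 (both drugs). With arrays centred on their median, 47 of the 68 member calls held, and after quantile normalisation 63 held. The 21 lost with centring include ITGB1 with the inhibitor and COL9A3, ITGA7 and ITGAV with both drugs against control. They also include COL9A2, ITGA9, LAMA4 and LAMB2 with both drugs against 17-AAG. With centring the count was 4 for 17-AAG and 8 for both drugs against 17-AAG. With all probe sets of a gene averaged these were 5 and 6, and both drugs against the inhibitor gave 6; LAMA4 turned to -0.14 (both drugs) and -0.27 (against 17-AAG). With the second brightest probe set the 3 counts were 5, 8 and 2; LAMA4 turned to -0.44, -0.15 and -0.32 against control and -0.17 against 17-AAG, ITGB5 to -0.27 with 17-AAG and 0.025 for both drugs against 17-AAG, and the COL4A1 interaction to 0.0091. Genes with 1 probe set, COL9A3, COL16A1, LAMA5, LAMB2, ITGAE and ITGAV among them, kept their signals in both of these settings. The counts therefore include genes that a change of probe set could not test. Of the main calls with 17-AAG, only those of ITGAE, ITGAV and LAMA5 held with the second brightest probe set, and each of these genes has 1 probe set. With only the arrays compared in the fit, 17-AAG gave 0 (10 with an unadjusted p under 0.05 in limma) and both drugs against 17-AAG 7. The interaction gave 11 without the dimmest 40% of genes and 10 with a trended, robust fit. At least 2-fold were 8 with the inhibitor, 1 with 17-AAG, 4 for both drugs against 17-AAG, 3 against the inhibitor and 3 for the interaction. With no signal minimum, 20 of 78 members were called with the inhibitor, 19 higher and 1 lower. The shares were 24.2% higher and 21.2% lower of genes that reached 100, and 6.57% and 1.40% of those that stayed below. Leaving out each array in turn gave 12 to 13, 3 to 10, 13 to 17, 9 to 13, 6 to 10 and 4 to 6. The cause of these changes was not tested. For the fits with a changed setting no share over all genes was taken, so their counts describe the members only. Of 52 member calls of genes with a second probe set, 19 were called again on it. Another 26 kept their sign but were not called, and 7 had the other sign and were not called either. Of 68 calls of single members, 21 held in all settings except those with control replicate 2 and at least 2-fold. The 21 include calls of ITGAE, LAMA5, LAMB2 and COL9A3, genes with 1 probe set, which the settings on probe set choice could not test.

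With the replicate number as a block the counts were 13, 6, 15, 10, 7 and 4, and 54 of 68 member calls held. Deviations of same-numbered samples correlated at r = -0.13 to 0.084 across genes in 15 pairs. The range was -0.16 to 0.16 in 30 pairs with different numbers. In groups this small the deviations from a group mean are tied to each other, and those of the control arrays mirror each other. These correlations therefore cannot tell whether same-numbered samples shared a culture or batch, and that was not tested.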
